A study of Homo sapiens with 5 samples.

Results

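SRF and its 3 cofactors of the myocardin family, MYOCD, MRTFA and MRTFB, were examined for binding of TEAD4 in LX-2 cells, a human hepatic stellate cell line. All 4 genes were found in the GENCODE release 44 annotation of hg38, among 20007 protein-coding genes. A TEAD4 peak was assigned to a gene when its summit lay in the gene body or within 50 kb of any of its transcription start sites (TSSs). This rule uses distance only, so an assigned peak is not shown to act on the gene. It gave 8 of the 21113 peaks of the list: 3 at SRF, 0 at MYOCD, 3 at MRTFA and 2 at MRTFB. For comparison, 56.2% of all protein-coding genes had at least 1 peak by the same rule, with a median of 1 peak per gene.

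The study profiled TEAD4, a DNA-binding partner of the coactivator YAP1, by ChIP-seq in 3 samples of LX-2 cells (replicates 1, 2 and 3) with 2 input samples, one for replicates 1 and 2 together and one for replicate 3. All 5 samples were LX-2 cells grown with 5% serum that had received DMSO, the solvent, and were fixed with 1% formaldehyde. There was thus 1 cell line and 1 condition. The authors kept replicates 1 and 3 and made a single list of peaks from both. This list gives no value per replicate, so no spread between replicates and no test stands behind any value here, the depth of the samples is unknown, and every difference between genes or peaks is a description. The list holds no expression values, so neither the identity of the cells nor the expression of the 4 genes was checked.

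SRF (serum response factor) is a MADS-box transcription factor that binds CArG boxes, sites with CC and GG on either side of a run of A and T. The MRTFs are kept inactive by monomeric actin and enter the nucleus when actin polymerises, whereas myocardin (MYOCD) is nuclear and best known in cardiac and smooth muscle. With SRF they switch on genes of the cytoskeleton and of contraction, and stellate cells take on contractile features when they turn into myofibroblasts. Ternary complex factors such as ELK1 use the same surface of SRF and direct it to immediate-early genes instead.

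The sequences around 3 of the 8 summits are shown because they hold the only TEAD motif and the only CArG boxes found beside the 8 summits. Each runs 100 bp to either side of the summit, on the plus strand of hg38. Capitals mark matches to the TEAD motif ACATTCC or its 6 bases CATTCC, to the AP-1 motif (TGACTCA or TGAGTCA) and to the CArG box, on either strand. The SRF sequence is chr6:43174298-43174498, the MRTFA sequence is chr22:40499198-40499398, and the MRTFB sequence is chr16:14057098-14057298.
SRF, peak in intron 2: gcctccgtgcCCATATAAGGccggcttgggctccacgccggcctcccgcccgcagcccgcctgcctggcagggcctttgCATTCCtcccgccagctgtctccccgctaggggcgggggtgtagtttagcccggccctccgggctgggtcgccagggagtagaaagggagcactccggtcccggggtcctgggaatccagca
MRTFA, peak in intron 3: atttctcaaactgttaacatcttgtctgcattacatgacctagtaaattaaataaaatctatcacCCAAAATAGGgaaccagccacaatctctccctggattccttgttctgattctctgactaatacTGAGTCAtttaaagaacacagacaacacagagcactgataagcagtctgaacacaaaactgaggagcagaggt
MRTFB, upstream peak: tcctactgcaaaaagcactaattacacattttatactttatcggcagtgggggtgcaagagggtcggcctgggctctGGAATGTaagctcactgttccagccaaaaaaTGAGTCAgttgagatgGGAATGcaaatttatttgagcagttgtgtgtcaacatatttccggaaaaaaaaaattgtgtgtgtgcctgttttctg

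The binding partner of all 3 cofactors, SRF (ENSG00000112658.8, chromosome 6, 43171269 to 43181506, plus strand), is a short gene of 10238 bp with a single annotated transcript. Its window of 100 kb held 3 peaks, more than the windows of 80.5% of protein-coding genes and fewer than those of 11.6%. The 3 include a very weak peak inside a neighbouring gene, described below. A count of 2, as at MRTFB, was more than that of 66.7% of protein-coding genes. When genes were put into 10 classes by the length of their window, SRF fell in the class of the shortest (2800 genes), of which 39.5% had a peak, with a median of 0. Each peak carries a signal value, taken here as the enrichment that the peak caller gave it, on a scale that is not stated. The median over the list was 68.1. The strongest of the SRF peaks (43174311 to 43174458) had a signal value of 101, above 70.2% of the list. Its summit lay 3129 bp after the TSS, in intron 2 of 6.

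The next SRF peak (43170803 to 43170913) had a signal value of 88.2, above 64.0% of the list, with its summit 404 bp before the TSS. It was the only one of the 8 peaks within 2.5 kb of a TSS of its gene, a distance at which 16.7% of all protein-coding genes had a peak. It was 111 bp wide, the narrowest width in the list, shared by 142 peaks. Both peaks were nearer to the TSS of SRF than to that of any other protein-coding gene, although they also lay within 50 kb of a TSS of PTK7 and of CUL9.

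The remaining SRF peak (43121165 to 43121608) lay at the edge of the window, with its summit 49882 bp before the TSS of SRF and inside the gene body of PTK7, a receptor-like pseudokinase gene whose nearest TSS was 9204 bp away. Its signal value was 6.62, and only 11 of the 21113 peaks had a lower one. Its −log10 q-value was 0.0356, which is a q-value of 0.921, while the other 7 peaks all had 4.76. Its IDR score, a measure of how well the rank of a peak repeats between replicates 1 and 3, was 1000, the maximum. Of the list, 76.1% had this score. The summit of a stronger peak (43121095 to 43121277, signal value 99.8) lay 199 bp further out, at 50081 bp from the TSS, just outside the window. SRF therefore had 2 peaks of middle rank near its promoter and a further assigned peak that was among the weakest of the list and lay in a neighbouring gene.

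MYOCD (ENSG00000141052.18, chromosome 17, 12665890 to 12768949, plus strand), which encodes myocardin, had 0 peaks in its window of 178 kb. This was shared with many genes: in its class of window length (2001 genes), 67.0% had a peak and 33.0% had none. Of all 3573 genes with a window at least as long, 1027 (28.7%) were without a peak. The nearest peaks lay far away on both sides. The closest one before the gene (11997107 to 11997264, signal value 70.0) was 669 kb from it, and the closest one after it (13346954 to 13347397, signal value 55.7) was 578 kb from it.

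The stretch without a summit around MYOCD thus measured 1350 kb. It was measured because MYOCD had no peak, so its length is a description and no further evidence. MYOCD shared the stretch with 3 other protein-coding genes, MAP2K4, ARHGAP44 and ELAC2. The window of MYOCD held 27 matches to the TEAD motif ACATTCC, or 15.1 per 100 kb. The density was 10.0 per 100 kb in the window of SRF, 11.6 in that of MRTFA, 17.8 in that of MRTFB and 16.3 over chromosomes 1 to 22, X and Y. The MYOCD window also held 28 AP-1 motifs and 6 CArG boxes.

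MRTFA (ENSG00000196588.21, chromosome 22, 40410281 to 40636719, minus strand), the ubiquitous MRTF first described through a fusion gene in megakaryoblastic leukaemia, spans 226439 bp and has 17 annotated transcripts. Its window of 319 kb held 3 peaks, or 0.940 per 100 kb, and all 3 lay in introns. In the class of the longest windows (2001 genes), which also holds MRTFB, 74.2% of genes had a peak and the median was 2. The strongest MRTFA peak (40588734 to 40589177) had a signal value of 79.4, above 58.7% of the list, and lay in intron 2 of 14, 47.8 kb into the gene. The nearest annotated TSS of MRTFA was 36610 bp away.

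The other MRTFA peaks formed a pair in intron 3, with summits 757 bp apart and 138 and 137 kb from the main TSS. The first (40498319 to 40498762) had a signal value of 40.9, its IDR score was 992, and its summit lay 6234 bp before an internal TSS. The second (40499076 to 40499519) had a signal value of 27.5, above only 5.62% of the list, and its IDR score of 852 was close to the lowest in the list, 830. Both were thus weaker than the peak in intron 2 and had lower IDR scores. Another summit within 757 bp was found for 18.1% of all summits in the list, so such pairs were common.

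Part of the sequence under 2 MRTFA peaks recurs in the genome. In the 201 bp around the summit at 40498319 to 40498762, 17.6% of the 32-base stretches were found elsewhere in hg38, the most frequent in 124 copies. For the strongest MRTFA peak the share was 6.47%, with up to 10 copies. It was 0.00% for the other 6 peaks, and 89.3% of 1056 peaks taken evenly from the list also had none. The effect of such stretches on the mapping of reads was not tested.

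MRTFB (ENSG00000186260.17, chromosome 16, 14071319 to 14266773, plus strand), the paralogue of MRTFA, spans 195455 bp and has 13 annotated transcripts. Its window of 287 kb held 2 peaks, or 0.697 per 100 kb, and neither lay in the gene. Both were upstream of the first TSS and 1010 bp apart, in a stretch where no other protein-coding gene had a nearer TSS. The stronger one (14056976 to 14057419) had a signal value of 74.7, above 55.5% of the list, 14121 bp before the TSS. The weaker one (14057986 to 14058429) had a signal value of 47.0, above 26.2% of the list, 13111 bp before the TSS. A further peak (14309844 to 14310287, signal value 42.0) lay 43.3 kb past the end of MRTFB, just outside its window. Of all summits in the list, 20.2% had another within 1010 bp.

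By the highest signal value, SRF (101) came before MRTFA (79.4) and MRTFB (74.7). Without replicate values it is not known whether this order exceeds the spread between replicates. All 3 values were moderate. The median highest signal value over the 11245 protein-coding genes with a peak was 97.5, and those of SRF, MRTFA and MRTFB exceeded that of 51.7%, 39.1% and 36.0% of these genes. No summit of the 8 peaks lay in an exon.

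The TEAD motif ACATTCC lay within 100 bp of the summit of only 1 of the 8 peaks (12.5%, exact Clopper-Pearson 95% interval 0.316 to 52.7%, which covers counting error only). Over the list 23.0% of peaks held it, and the share was 2.82% in equally wide windows placed 2000 bp before and after each summit. The 1 peak was the stronger one at MRTFB, where the motif lay on the minus strand (GGAATGT, 14057175 to 14057181) with its centre 20 bp from the summit, as printed above. The same window held an AP-1 motif, TGAGTCA, centred 11 bp from the summit, and a further GGAATG centred 26.5 bp from it. Of the peaks in the list, 4.49% held both the TEAD and the AP-1 motif. The shorter CATTCC, which also counts every full TEAD motif, was found in 3 of the 8 peaks and in 46.8% of the list. At SRF its centre lay 18.5 bp from the summit in intron 2.

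AP-1 motifs, the sites of FOS and JUN proteins, were found in 2 of the 8 peaks (25.0%, interval 3.19 to 65.1%), those at MRTFB and in intron 3 of MRTFA, against 25.4% of the list. The RUNX motif TGTGGTT was found in 0 of the 8 peaks, for which the exact interval reaches 36.9%, against 9.53% of the list. None of the 4 motifs was present in 5 of the 8 peaks, and in 49.4% of the list. For the TEAD, AP-1 and RUNX motifs the exact intervals include the share of the list. All these intervals, also that of the CArG box below, treat the 8 peaks as independent. The peaks in intron 3 of MRTFA and those at MRTFB lie close together, so the intervals are descriptions and no test.

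CArG boxes, the sites of SRF itself, lay in 2 of the 8 peaks (25.0%, interval 3.19 to 65.1%), against 1.58% of the list and 1.19% of the flanking windows. One was the box CCAAAATAGG in intron 3 of MRTFA (40499263 to 40499272), with its centre 30.5 bp from the summit, and an AP-1 motif lay on the other side of the summit, centred 31 bp away. AP-1 and CArG motifs were found together in 0.365% of the list. The other was the box CCATATAAGG at SRF (43174308 to 43174317), centred 85.5 bp from the summit in intron 2 and lying across the left end of the peak. The windows of the 4 genes held 5 CArG boxes at SRF, 6 at MYOCD, 17 at MRTFA and 19 at MRTFB, so most lay away from TEAD4 summits. The MRTFA box lay in a peak with a signal value of 27.5, above only 5.62% of the list. Within 50 bp of a summit a box was found in 1 peak only, that of MRTFA. These matches, in 2 peaks only, are descriptions of sequence, and binding of SRF was not measured.

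The bases CCATATAAGG in intron 2 of SRF occur in its promoter as well. RefSeq promoter sequences (GRCh38.p14) matched 3 of the 4 genes, SRF with 2 promoters, MRTFA with 3 and MRTFB with 4, and covered 250 bases before to 50 after each start. The 250 bases before the start of SRF are shown because they lie between the summit at 404 bp and the TSS (chr6:43171019-43171268, plus strand), with CArG boxes in capitals.
SRF, promoter: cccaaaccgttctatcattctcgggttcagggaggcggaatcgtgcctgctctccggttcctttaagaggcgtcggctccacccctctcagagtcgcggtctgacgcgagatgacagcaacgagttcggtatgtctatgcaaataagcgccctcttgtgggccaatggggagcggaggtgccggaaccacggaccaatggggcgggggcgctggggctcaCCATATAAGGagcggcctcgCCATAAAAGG
It held CCATATAAGG from 30 to 21 bases before the TSS and CCATAAAAGG from 10 bases before it to the last base before it. Of all 35116 promoters in the table, 454 (1.29%) held a CArG box and 11 (0.0313%) held several. No promoter of SRF, MRTFA or MRTFB held the TEAD motif, which 3.46% of all promoters did. An AP-1 motif was found in 1 promoter of MRTFB (4.95% of all promoters) and a RUNX motif in 1 of MRTFA (4.27%). The summit nearest to the SRF promoter was thus upstream of these CArG boxes, and its own window held none of the 4 motifs.

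The base composition of the SRF peak in intron 2 stood at the high end of the 8. Its 201 bp were 71.1% G and C with 15 CpG dinucleotides, whereas the other 7 windows ranged from 38.3 to 54.2% with at most 6 CpG dinucleotides. The median over the list was 44.8%.

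Among the genes of the SRF pathway, 30 of 38 on 4 lists had a peak by the same rule (78.9%, exact interval 62.7 to 90.4%), with a median of 2 peaks per gene. The share over all protein-coding genes was 56.2%. Within 2.5 kb of a TSS, 20 of the 38 genes and 1 of the 4 (SRF) had a peak, against 16.7% of all protein-coding genes. Several of the listed genes are also known targets of TEAD and YAP1, and the lists differ in gene length, so these shares are descriptions.

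Among the partners of SRF, ternary complex factors, which compete with the MRTFs, had a peak at 1 of 3 genes. ELK3 had 3 peaks with a highest signal value of 114, and ELK1 and ELK4 had none. Of the other MADS-box genes, the MEF2 family, 2 of 4 had a peak. These were MEF2D (154) and MEF2A (42.4), while MEF2B and MEF2C had none.

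Downstream of SRF and the MRTFs, 20 of 22 contractile and cytoskeletal genes had a peak (90.9%), with a median of 3.5. The highest signal values were 632 at TPM1, which encodes a tropomyosin, 617 at CCN2 and 573 at CCN1. Both CCN genes encode matricellular proteins and are classical YAP1 targets. Only the CCN2 peak of these lay close to a TSS of its gene, at 114 bp. The strongest TPM1 peak lay 46040 bp and the strongest CCN1 peak 25997 bp from a TSS of the gene, so these 2 peaks were assigned from afar. Both genes also had peaks within 2.5 kb of a TSS, 3 of the 12 at TPM1 and 2 of the 10 at CCN1. By highest signal value the weakest of the 20 genes were ACTA2 (35.6), MYH11 (41.3) and SMTN (48.2), against a median of 228. These 3 values were above only 10.6%, 18.2% and 28.0% of all peaks. ACTG2 and CNN1, genes of smooth muscle, had no peak. Contractile genes of the same list were not all weak. CALD1 (303), LMOD1 (250), TPM2 (248) and TAGLN (234) had highest signal values above the median of 228. The strongest LMOD1 and TAGLN peaks lay 113 and 206 bp from a TSS of the gene. Of 9 immediate-early genes, 7 had a peak (77.8%), with a median of 3. FOSB (328), IER2 (325) and NR4A1 (324) had the highest signal values, and EGR1 and EGR2 had none. Over the 30 genes with a peak, the median highest signal value was 154, whereas SRF, MRTFA and MRTFB reached 101, 79.4 and 74.7. A gene with more peaks has more values from which the highest is taken. The listed genes had up to 12 peaks and the 4 genes up to 3, and this was not adjusted for.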

How the data were processed

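TEAD4 ChIP-seq of LX-2 cells was analysed from 1 list of 21113 peaks with 10 columns and no column of a single sample. The authors mapped reads of 50 bases to hg38 with Chromap and ran the ENCODE IDR pipeline on replicates 1 and 3. Replicate 2 was left out because it was not concordant enough with the others. Each peak in the deposited file carries a score (its scaled IDR), a signal value, a −log10 q-value and the position of its summit, as the authors' pipeline wrote them. What each column means was taken from the layout of the file, and the peak caller for TEAD4 is not given in the sources used here. Depth is unknown, as the reads and signals of each replicate were not used here.

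Summits were assigned to genes of GENCODE release 44 (chromosomes 1 to 22, X and Y) in the gene body or within 50 kb of any TSS, and introns follow the MANE Select transcript. All shares and signal values were described without tests. Genes were grouped into 10 classes by window length. Both strands were searched for motifs up to 100 bp from the summit, in windows 2000 bp away and in the RefSeq promoters. The code was tested on simulated data with known answers. The 4 genes, the pathway lists and the rules were chosen with earlier results of these data known. All peaks of the 4 genes are named, and from each list the genes without a peak and the 3 with the highest signal value. For the contractile and cytoskeletal list the 3 weakest genes with a peak are named as well, with some contractile genes above the median of that list. The search for stretches of 32 bases found elsewhere was chosen after the data were seen and covered every 20th peak of the list. Scripts ran in Python 3.11.15 (pandas 2.3.3, numpy 2.4.6, matplotlib 3.10.9, scipy 1.17.1). A further list of pathway genes and the sequence of 1 peak are not reported here. Alternatives changed the set of peaks, the distance, the annotation, the motif window and the motif.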

Additional observations from a re-analysis of the deposited data

How the results depend on the processing

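Over 15 results, 136 alternatives were run. Counted as unmoved were counts within 1.5 times the first value, shares within its 95% interval and unchanged signal values, which held for 104, while 32 moved. MYOCD had 0 peaks under every alternative run for it, including 100 kb. The 8 peaks became 11 with 100 kb in place of 50 kb (5 at SRF and 3 at MRTFB), 6 at the highest IDR score, 4 with only peaks above the median signal value, 5 with 10 kb, 4 in gene bodies only and 1 within 2.5 kb of a TSS, where the highest signal value was 88.2. The 30 pathway genes with a peak became between 20 and 32. A limit of 0.05 on the q-value removed the weak SRF peak and left 7. Counting any base of a peak gave 9, since the stronger neighbour of that peak then entered. MRTFA kept 1 of its 3 peaks at the highest IDR score, which 76.1% of the list had.

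The share of protein-coding genes with a peak was 48.8% at the highest IDR score, 38.8% with only peaks above the median signal value, 34.0% at 10 kb, 72.0% at 100 kb, 55.3% without gene bodies, 25.0% in gene bodies only, 16.7% within 2.5 kb and 53.5% with one TSS per gene. With RefSeq starts it was 53.9% of 15345 genes. That alternative covered 3 of the 4 genes, with 8 peaks, and 31 of the 38 pathway genes, of which 23 had a peak, and gave no value for MYOCD. The TEAD motif was found in 3 peaks within 250 bp, and its 6 bases in 3 peaks within 100 bp. The share of the list with the TEAD motif within 250 bp was not counted, so that count has no background beside it. The AP-1 motif was found in 1 peak at the highest IDR score and in 1 above the median signal value. A CArG box was found in 1 peak within 50 bp, in 1 at the highest IDR score and in 1 above the median signal value. No paired analysis was possible because one list combines the replicates, and no replicate could be left out. The effect of depth was not tested.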
